A study of Homo sapiens with 4 samples.

Results

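The proteasome genes of this expression study were examined as 1 group in colon carcinoma cells grown as spheroids and as a monolayer. Its members were the probe sets with a single gene symbol that was POMP or began with PSMA, PSMB, PSMC, PSMD, PSME, PSMF or PSMG and a digit, with pseudogenes, antisense and divergent transcripts left out. The rule gave 89 probe sets of 45 genes, out of 54675 probe sets and 19775 named genes on the array. The cells were of the established line HCT116, from a human colon carcinoma, in the versions HCT116 wt/GFP, written HCT116/GFP_wt in 1 title, and HCT116 wt. Each version was grown as spheroids, which are rounded multicellular aggregates, and as a monolayer attached to a dish, with 1 Affymetrix array of total RNA for every combination. The spheroid group thus held 2 arrays and the monolayer group 2 arrays, and their number limits the precision of every value. The labels state no drug, time in culture or number of cultures behind an array, nor how the GFP version was made. The study compared the cultures to characterise how gene expression differs between them.

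The proteasome is the main protease of the cytosol and nucleus. Its barrel-shaped 20S core is built of rings of alpha and beta subunits, and 3 of the beta subunits cut proteins. The 19S regulatory particle, with a base of ATPases and a lid, binds ubiquitin-tagged proteins, unfolds them and feeds them into the core. Interferons induce the immunoproteasome, in which PSMB8, PSMB9 and PSMB10 take the places of PSMB5, PSMB6 and PSMB7, and the cap PA28, made of PSME1 and PSME2, can replace the 19S particle. These replacements favour peptides for presentation on HLA class I molecules. NFE2L1, a transcription factor, is known to raise the genes of the standard proteasome together when proteasome activity is low, through antioxidant response elements in their promoters.

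Of the 45 genes, 43 passed the filter on dim probe sets and were tested; PSMB8 and PSMA8, a testis-restricted alpha subunit, did not. PSMA6 and PSME2 were listed here only on probe sets that name several genes, so no value is given for them, and 5 such probe sets were passed over. PSMC5, PSMD7, PSMD13 and PSMB11 were not analysed here. The rule also took in PSMC3IP, a cofactor of meiotic recombination, and PSME3IP1, a protein that binds PSME3, which share the name and are not subunits. They are kept in the counts and described last. The constitutive subunits of the 20S core and the 19S particle that were tested numbered 27, and the inducible members tested were PSMB9, PSMB10 and PSME1. Of the markers of the labelled epithelial cell type, EPCAM, KRT8, KRT18, KRT19 and CDH1 were all above the filter.

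In spheroids, 37 of the 43 members tested were lower and 2 were higher, at an adjusted p under 0.05 in a fit across all genes. PSMB10, an inducible beta subunit, had the largest fall of any member, whereas PSMB9 and PSME1, which interferons also induce, rose. Of all genes tested, 86.5% had a log2 change at or below that of PSMB9 and 73.3% at or below that of PSME1. All 14 constitutive subunits of the 19S particle and 11 of 13 of the 20S core fell. The median log2 change was -0.83 for the 27 constitutive subunits and 0.23 for all 14349 genes tested. Of all genes tested, 18.5% were called lower and 30.6% higher, 49.1% in either direction. Members were called lower in 86% of cases and higher in 4.65%. Both spheroid arrays lay below both monolayer arrays for 40 of the 43 members, against 26.5% of all genes, and above them for 2 members, against 47.1% of all genes. The remaining gene, PSMA1, had overlapping arrays.

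**Figure D1:**
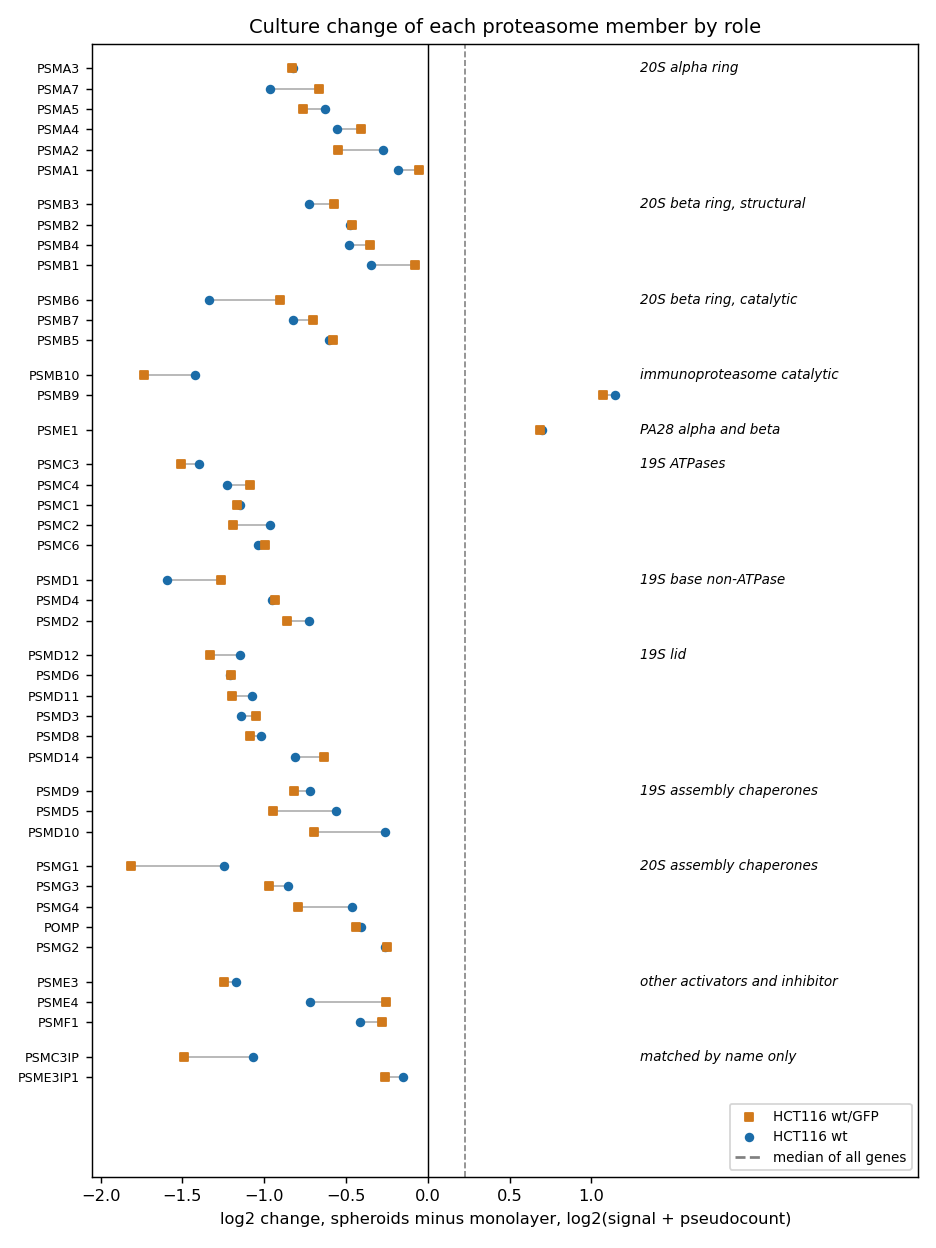
Log2 change of each of the 43 members tested, spheroids minus monolayer, grouped by role, with an orange square for HCT116 wt/GFP and a blue circle for HCT116 wt. The dashed line is the median of all 14349 genes, 0.23. All members except PSMB9 and PSME1 lie left of 0 in both lines, with PSMG1 and PSMB10 farthest left in wt/GFP and PSMD1 and PSMB10 in wt.

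Because constitutive subunits moved together while the inducible members split, promoters of both are shown first, as windows of 300 bases, 250 before and 50 after the annotated start, from RefSeq on GRCh38.p14, 5′ to 3′ on the gene's strand. The set holds the 3 inducible members tested and, of the constitutive 19S subunits, the 3 with the largest falls. Capitals mark matches on either strand to 5 motifs, which were the antioxidant response element core TGACNNNGC, the CCAAT box, the IRF element (repeated GAAA), the STAT element TTCNNNGAA and the ETS site CCGGAAGT. No matches overlapped in these windows.
PSMB9, chr6:32853942-32854241, plus strand: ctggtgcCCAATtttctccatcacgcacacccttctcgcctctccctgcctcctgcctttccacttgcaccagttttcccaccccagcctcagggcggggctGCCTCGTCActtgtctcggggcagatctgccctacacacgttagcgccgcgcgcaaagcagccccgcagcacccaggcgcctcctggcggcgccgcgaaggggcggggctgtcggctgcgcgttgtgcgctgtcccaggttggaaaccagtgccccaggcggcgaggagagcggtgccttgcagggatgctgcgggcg
PSMB10, chr16:67936801-67937100, minus strand: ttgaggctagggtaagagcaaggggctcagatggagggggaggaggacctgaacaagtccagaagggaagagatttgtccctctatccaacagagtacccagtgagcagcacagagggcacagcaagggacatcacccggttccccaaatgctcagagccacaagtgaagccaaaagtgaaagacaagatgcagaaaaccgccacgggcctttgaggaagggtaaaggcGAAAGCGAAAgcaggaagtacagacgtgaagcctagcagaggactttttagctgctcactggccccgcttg
PSME1, chr14:24135944-24136243, plus strand: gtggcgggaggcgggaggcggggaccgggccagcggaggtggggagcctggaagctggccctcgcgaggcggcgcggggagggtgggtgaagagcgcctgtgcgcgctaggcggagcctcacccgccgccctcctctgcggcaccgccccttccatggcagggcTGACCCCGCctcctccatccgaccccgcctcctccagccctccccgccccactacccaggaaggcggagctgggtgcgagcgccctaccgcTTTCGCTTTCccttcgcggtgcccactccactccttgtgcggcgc
PSMC3, chr11:47426390-47426689, minus strand: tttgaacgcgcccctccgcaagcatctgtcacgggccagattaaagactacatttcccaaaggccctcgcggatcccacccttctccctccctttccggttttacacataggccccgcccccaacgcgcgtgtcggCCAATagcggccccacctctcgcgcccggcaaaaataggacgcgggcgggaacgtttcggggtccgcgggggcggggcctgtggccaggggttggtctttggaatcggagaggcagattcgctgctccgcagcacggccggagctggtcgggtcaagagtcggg
PSMD1, chr2:231056617-231056916, plus strand: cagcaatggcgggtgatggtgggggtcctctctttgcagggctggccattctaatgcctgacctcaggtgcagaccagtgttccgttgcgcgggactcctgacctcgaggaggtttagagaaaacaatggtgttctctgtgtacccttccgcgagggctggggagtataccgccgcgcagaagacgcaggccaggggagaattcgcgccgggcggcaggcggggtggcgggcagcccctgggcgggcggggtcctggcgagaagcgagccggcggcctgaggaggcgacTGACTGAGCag
PSMD12, chr17:67366528-67366827, minus strand: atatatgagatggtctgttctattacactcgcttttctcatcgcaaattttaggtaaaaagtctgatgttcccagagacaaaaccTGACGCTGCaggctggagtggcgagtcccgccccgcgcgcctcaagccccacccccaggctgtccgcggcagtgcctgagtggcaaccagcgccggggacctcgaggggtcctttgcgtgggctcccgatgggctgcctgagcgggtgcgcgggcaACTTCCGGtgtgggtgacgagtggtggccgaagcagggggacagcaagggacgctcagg

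PSMB10 held the IRF element, the site of interferon regulatory factors, on the gene's strand with its first base at -21 counted from the annotated start as 0. PSME1 held it on the other strand, at 5, with an antioxidant response element core at -86. The window of PSMB9 held no IRF element and had the antioxidant response element core at -148 and a CCAAT box at -243. Among the 19S subunits, PSMC3 held a CCAAT box at -114, PSMD1 an antioxidant response element core at 39 and PSMD12 one at -165 and an ETS site at -9. PSMB10, whose signal fell, and PSME1, whose signal rose, both held the IRF element, and whether any factor bound it was not tested.

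Of the 27 constitutive subunits tested, 22 had a window. The CCAAT box was found in 12 of these 22, or 54.5%, against 35.7% of all 27305 windows, taking 1 window a gene, and in 1 of the 5 inducible members. The antioxidant response element core was found in 5 of 22, or 22.7%, against 13.6% of all windows, and in 3 of the 5 inducible members. The ETS site was found in 5 of 22, or 22.7%, against 4.44% of all windows, and in 0 of the 5 inducible members. The IRF element was found in 2 of 22, or 9.09%, against 3.65% of all windows, and in 3 of the 5 inducible members. The STAT element was found in 3 of 22, or 13.6%, against 7.88% of all windows, and in 0 of the 5 inducible members. These shares describe letters in a window of this length, and the motifs were chosen with matches of several motifs in view.

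The inducible members were set beside the constitutive subunits whose places they take. PSMB9, read by 1 probe set, cuts in the position of PSMB6. Its signal, the linear brightness that Affymetrix's MAS5 algorithm gives a probe set, which compares arrays and not genes, was 579 and 515 in wt/GFP and wt spheroids, against 268 and 226 in wt/GFP and wt monolayers. Both spheroid arrays were above both monolayer arrays. On the log2 scale with a pseudocount of 14.0, PSMB9 rose by 1.11 ± 0.20 log2 units (SE), or 2.16-fold (limma adjusted p = 3.62e-05, higher in 2 of 2 lines). The signal of PSMB6 was 7809 and 7120.0 in wt/GFP and wt spheroids, against 14626 and 18044 in wt/GFP and wt monolayers. PSMB6 fell by 1.12 ± 0.13 log2 units (SE), or 2.18-fold (adjusted p = 2.09e-08), the largest fall among the constitutive 20S subunits, and its arrays did not overlap between cultures.

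PSMB10, also read by 1 probe set, takes the place of PSMB7. Its signal was 447 and 576 in wt/GFP and wt spheroids, against 1519.5 and 1570.1 in wt/GFP and wt monolayers, so that both spheroid arrays were far below the monolayer arrays. PSMB10 fell by 1.58 ± 0.15 log2 units (SE), or 2.99-fold (limma adjusted p = 8.74e-10). PSMB7 gave 10564 and 11154 in wt/GFP and wt spheroids, against 17176 and 19784 in wt/GFP and wt monolayers. It fell by 0.76 ± 0.12 log2 units (SE), or 1.7-fold (adjusted p = 6.33e-06), in the same direction as PSMB10. PSMB8 takes the place of PSMB5 and was measured by 1 probe set with signals of 7.51 and 6.5 in wt/GFP and wt spheroids, against 2.78 and 2.1 in wt/GFP and wt monolayers. All 4 values lay below the filter signal of 30.6, so PSMB8 was not tested and no fold is given. PSMB5, the chymotrypsin-like constitutive subunit, had signals of 7618 and 8329 in wt/GFP and wt spheroids, against 11400.1 and 12650.0 in wt/GFP and wt monolayers. It fell by 0.59 ± 0.12 log2 units (SE), or 1.51-fold (adjusted p = 0.000115).

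PSME1, the alpha chain of the PA28 cap, had signals of 6698 and 7480.4 in wt/GFP and wt spheroids, against 4153 and 4596 in wt/GFP and wt monolayers. It rose by 0.69 ± 0.11 log2 units (SE), or 1.62-fold (limma adjusted p = 1.01e-05), with both spheroid arrays above both monolayer arrays. PSME3, the nuclear relative that forms its own ring-shaped activator, had signals of 885 and 1051 in wt/GFP and wt spheroids, against 2116 and 2388 in wt/GFP and wt monolayers. It fell by 1.21 ± 0.13 log2 units (SE), or 2.31-fold (adjusted p = 8.03e-09), and all 4 of its probe sets were called lower. Within 1 family of activators the alpha chain was thus higher and the gamma chain lower in spheroids.

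**Figure D2:**
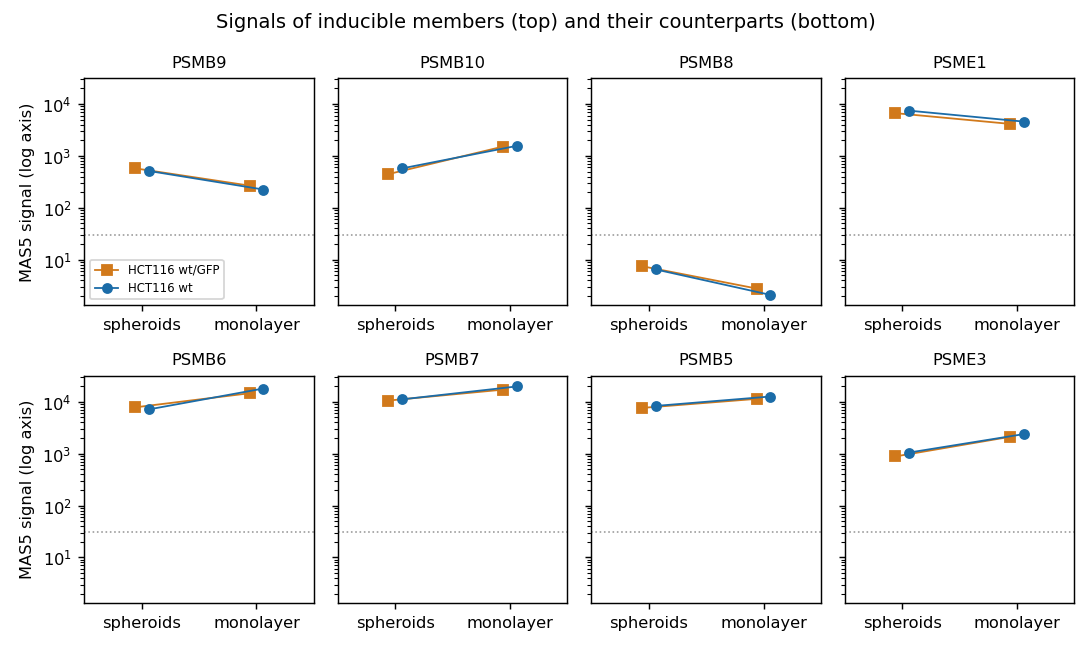
MAS5 signals on a log axis in spheroids and monolayers, with a line for HCT116 wt/GFP (orange squares) and HCT116 wt (blue circles), for the inducible members PSMB9, PSMB10, PSMB8 and PSME1 above and PSMB6, PSMB7, PSMB5 and PSME3 below. The dotted line is the filter signal of 30.6. PSMB9 and PSME1 slope down from spheroids to monolayers, PSMB10 and the lower 4 genes slope up, and PSMB8 lies under the dotted line on every array.

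Changes of a ratio within an array do not depend on how arrays are scaled by a common factor. The log2 ratio of PSMB9 to PSMB6 differed between spheroids and monolayers by 1.98 in wt/GFP and 2.48 in wt (mean 2.23 ± 0.36 SD, n = 2 lines), or 4.69-fold. The ratio of PSMB10 to PSMB7 differed by -1.03 in wt/GFP and -0.60 in wt (mean -0.82 ± 0.31 SD, n = 2 lines). The ratio of PSMB9 to PSMB10 differed by 2.81 in wt/GFP and 2.57 in wt (mean 2.69 ± 0.17 SD, n = 2 lines), or 6.45-fold. The ratio of PSME1 to PSME3 differed by 1.93 in wt/GFP and 1.87 in wt (mean 1.90 ± 0.04 SD, n = 2 lines), and that of PSMB9 to PSMB5 by 1.65 in wt/GFP and 1.75 in wt (mean 1.70 ± 0.07 SD, n = 2 lines). The 5 ratios had the same sign in both lines. They show unequal change of the 2 genes and not which of them changed, and with 2 lines no exact test of a ratio can reach the threshold, so none was run.

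The rises of PSMB9 and PSME1 depended on the scaling. After quantile normalization PSMB9 changed by 0.82 and PSME1 by 0.85, both still called. After scaling to 18 hybridisation controls, which are added transcripts of bacterial and phage genes, the values were 0.51 (limma adjusted p = 0.202) and 0.10 (adjusted p = 0.838), neither called. These controls were brighter on the spheroid arrays by 0.79 log2 units in wt/GFP and 0.39 in wt (median). Scaling to them therefore moved the lines by unlike amounts. The SE under it was 0.31 for PSMB9 and 0.30 for PSME1, against 0.20 and 0.11 as deposited. No gene of the group was called higher under all 4 scalings, against 6.83% of all genes. The 37 members called lower were called lower under all 4, against 17.2% of all genes. Median centring and hybridisation scaling lower every log2 change by a constant. Keeping a call under all 4 was therefore easier for a fall than for a rise. The median log2 change of the constitutive subunits was -0.74 with quantile normalization, -1.22 with median centring and -1.42 with the hybridisation controls. The median of all genes was 0.02, -0.17 and -0.37 under these scalings. Relative to all genes the constitutive subunits had a median of -1.05 as deposited and of -0.76 after quantile normalization. Median centring and hybridisation scaling move every gene of an array by 1 amount, so under them the relative value stays at -1.05 by construction.

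**Figure D3:**
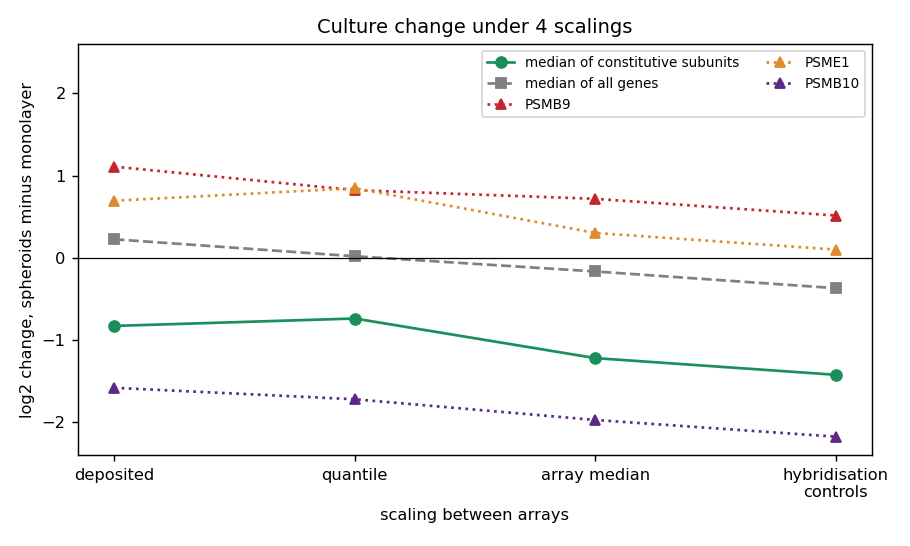
Log2 change, spheroids minus monolayer, under the deposited scaling, quantile normalization, median centring and scaling to hybridisation controls, for the median of 27 constitutive subunits, the median of all genes, PSMB9, PSME1 and PSMB10. The constitutive median stays between -1.42 and -0.74, below the median of all genes at each scaling, and PSME1 comes down to 0.10 at the last.

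The alpha ring forms the outer rings and the gate of the 20S core. Of its 6 members tested, 5 fell, and the 6 changes lay between -0.83 and -0.12. PSMA3 had signals of 10061 and 11265 in wt/GFP and wt spheroids, against 17912 and 19946 in wt/GFP and wt monolayers, and fell by 0.83 ± 0.12 log2 units (SE), or 1.77-fold (limma adjusted p = 1.78e-06). PSMA7 had signals of 10997 and 10331 in wt/GFP and wt spheroids, against 17457 and 20158 in wt/GFP and wt monolayers, and fell by 0.81 ± 0.12 log2 units (SE), or 1.76-fold (adjusted p = 3.39e-06). In both genes the spheroid arrays lay below the monolayer arrays. PSMA5 had signals of 5784 and 6870.2 in wt/GFP and wt spheroids, against 9842 and 10616 in wt/GFP and wt monolayers, and fell by 0.70 ± 0.12 (adjusted p = 1.26e-05), while PSMA4 and PSMA2 fell by 0.48 ± 0.12 and 0.41 ± 0.12. These 3 genes had no overlap between cultures either. With the probe sets of a gene averaged, PSMA5 changed by -0.04 (adjusted p = 0.77) and lost its call. PSMA1 was the exception, with signals of 17276 and 19372 in wt/GFP and wt spheroids, against 17900.2 and 22009 in wt/GFP and wt monolayers. They overlapped between cultures, with a change of -0.12 ± 0.13 (adjusted p = 0.465, 95% interval -0.38 to 0.14). That value came from the brightest of its 3 probe sets. The other probe sets of PSMA1 changed by -0.44 ± 0.14 (adjusted p = 0.0139) and -0.61 ± 0.13 (adjusted p = 0.000343), and were called lower when every probe set was tested alone.

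The beta rings hold the active sites. Of the 4 structural beta subunits, 3 fell, and the catalytic PSMB5, PSMB6 and PSMB7 all fell as given above. PSMB3 had signals of 12573 and 13346 in wt/GFP and wt spheroids, against 18745 and 22116 in wt/GFP and wt monolayers, with both spheroid arrays lower, and fell by 0.65 ± 0.12 log2 units (SE), or 1.57-fold (limma adjusted p = 6.82e-05). PSMB2 had signals of 11917 and 13399 in wt/GFP and wt spheroids, against 16419.6 and 18595 in wt/GFP and wt monolayers, and fell by 0.47 ± 0.12 (adjusted p = 0.00204). PSMB4 fell by 0.42 ± 0.12. PSMB1, with the brightest probe set of the members, had signals of 22499 and 23521 in wt/GFP and wt spheroids, against 23758 and 29887 in wt/GFP and wt monolayers, with a change of -0.21 ± 0.13, which did not pass (adjusted p = 0.191, 95% interval -0.48 to 0.06). The median change was -0.59 over the 13 subunits of the 20S core.

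The ATPases of the 19S base unfold substrates, and all 5 that were tested fell by at least 2-fold. The smallest of these falls was that of PSMC6, and 5.15% of all genes tested had a log2 change at or below it. PSMC3 had signals of 2989.9 and 3434 in wt/GFP and wt spheroids, against 8535 and 9071 in wt/GFP and wt monolayers. Both spheroid arrays were far below both monolayer arrays, and PSMC3 fell by 1.45 ± 0.11 log2 units (SE), or 2.74-fold (limma adjusted p = 3.33e-11). PSMC4 had signals of 2342 and 2320.2 in wt/GFP and wt spheroids, against 4981 and 5458 in wt/GFP and wt monolayers, and fell by 1.16 ± 0.12 log2 units (SE), or 2.23-fold (adjusted p = 3.04e-09). PSMC1, PSMC2 and PSMC6 fell by 1.16 ± 0.12, 1.08 ± 0.12 and 1.02 ± 0.12. No array of any of these ATPases overlapped between the cultures.

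Among the other base subunits, PSMD1, a large scaffold, had signals of 2551 and 2338 in wt/GFP and wt spheroids, against 6134 and 7085 in wt/GFP and wt monolayers. The cultures did not overlap, and PSMD1 fell by 1.43 ± 0.12 log2 units (SE), or 2.69-fold (limma adjusted p = 9.61e-11). PSMD4, a receptor for ubiquitin chains, had signals of 5646 and 6332 in wt/GFP and wt spheroids, against 10810.5 and 12260.1 in wt/GFP and wt monolayers, and fell by 0.94 ± 0.12 (adjusted p = 1.05e-07). Its 3 probe sets over the filter were all called lower. PSMD2, another scaffold of the base, fell by 0.79 ± 0.11.

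All 6 lid subunits tested fell, with changes between -1.24 and -0.72. PSMD12 had signals of 6150.4 and 7386 in wt/GFP and wt spheroids, against 15466 and 16358 in wt/GFP and wt monolayers, and fell by 1.24 ± 0.12 log2 units (SE), or 2.36-fold (limma adjusted p = 1.36e-09). PSMD6 had signals of 5419.6 and 6007 in wt/GFP and wt spheroids, against 12487 and 13909 in wt/GFP and wt monolayers, and fell by 1.21 ± 0.12 log2 units (SE), or 2.31-fold (adjusted p = 1.42e-09). In both, all spheroid values were under all monolayer values. PSMD11, PSMD3 and PSMD8 fell by 1.13 ± 0.11, 1.10 ± 0.12 and 1.05 ± 0.11. PSMD14, the protease that removes ubiquitin chains from substrates, had the smallest fall of the lid, 0.72 ± 0.12 (adjusted p = 1.18e-05).

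The 19S particle had a median log2 change of -1.12 and the 20S core one of -0.59, and the ranges overlapped, from -1.45 to -0.72 and from -1.12 to -0.12. The difference of the medians, 19S minus 20S, was -0.55 in wt/GFP and -0.51 in wt. The probe sets also differed in brightness, which is not a measure of mRNA level between genes: mean log2 signals lay between 11.3 and 13.6 for the 19S particle and between 13.0 and 14.6 for the 20S core. Across the 27 constitutive subunits the mean log2 signal and the log2 change had a Pearson r of 0.76 and a Spearman rho of 0.77, so that brighter probe sets had smaller falls. The points share the same 4 arrays, and whether the brightest probe sets understate a change was not tested. Of the 43 members, 29 were among the 1435 brightest of all genes tested, and 25 of these, or 86.2%, were called lower. Among those 1435 genes, 40.5% were called lower and 23.6% higher.

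**Figure D4:**
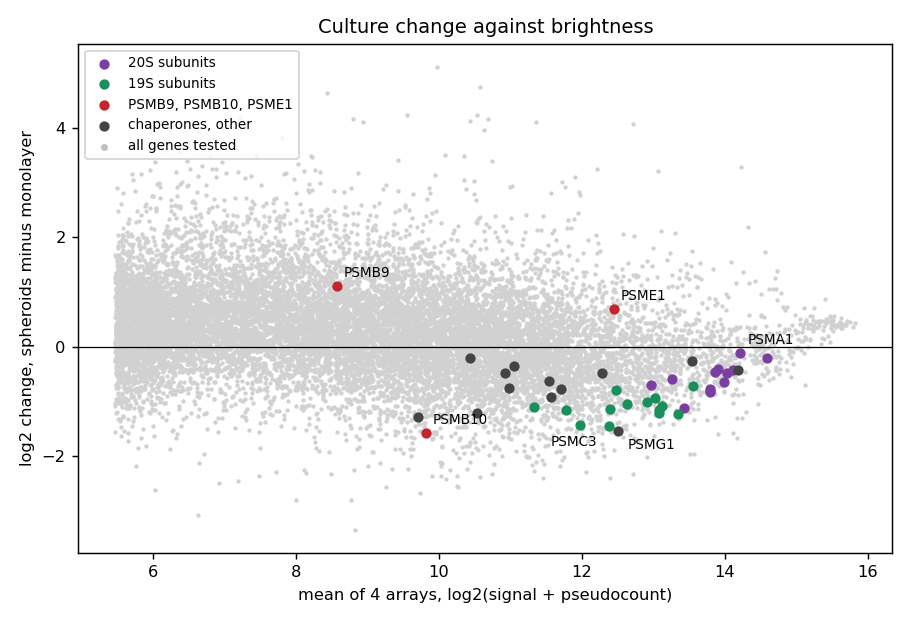
Log2 change, spheroids minus monolayer, against the mean log2 signal of 4 arrays, for the 20S subunits (purple), 19S subunits (green), PSMB9, PSMB10 and PSME1 (red), the other members (dark) and all 14349 genes (grey). The constitutive subunits lie at the bright end below 0, with the brightest, PSMB1 and PSMA1, nearest to 0, and PSMB9 and PSME1 lie above 0.

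Chaperones that build the 20S core fell in 4 of 5 cases, of which PSMG4 depended on the probe sets used. PSMG1, which with PSMG2 starts the alpha ring, had signals of 2802 and 4181 in wt/GFP and wt spheroids, against 9888 and 9942 in wt/GFP and wt monolayers. The spheroid arrays lay well below the monolayer arrays and apart from each other, and PSMG1 fell by 1.53 ± 0.13 log2 units (SE), or 2.89-fold (limma adjusted p = 8.57e-11). Its change was -1.81 in wt/GFP and -1.25 in wt. PSMG2, its partner, had signals of 10391 and 11414 in wt/GFP and wt spheroids, against 12349.5 and 13690.2 in wt/GFP and wt monolayers, with a change of -0.26 ± 0.12, which did not pass (adjusted p = 0.0765). PSMG3 had signals of 2136 and 2289 in wt/GFP and wt spheroids, against 4191 and 4144 in wt/GFP and wt monolayers, and fell by 0.91 ± 0.12 (adjusted p = 2.2e-07). Both arrays of spheroids were lower for PSMG3 and for PSMG4, which works with it. PSMG4 had signals of 2146 and 2659.6 in wt/GFP and wt spheroids, against 3729.5 and 3676 in wt/GFP and wt monolayers, and fell by 0.63 ± 0.12 (adjusted p = 7.87e-05). Its change was 0.20 with its probe sets averaged and 0.92 with shared probe sets left out, neither called. POMP, which is needed for the joining of the rings and helps the inducible subunits into the core, had signals of 15044 and 17148 in wt/GFP and wt spheroids, against 20383 and 22805 in wt/GFP and wt monolayers, and fell by 0.42 ± 0.12 (adjusted p = 0.00564).

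The chaperones of the 19S base, PSMD5, PSMD9 and PSMD10, all fell. PSMD9 had signals of 2436 and 2701 in wt/GFP and wt spheroids, against 4303 and 4460.1 in wt/GFP and wt monolayers, and fell by 0.77 ± 0.12 (limma adjusted p = 2.81e-06). PSMD5 had signals of 1355 and 1752 in wt/GFP and wt spheroids, against 2621 and 2588 in wt/GFP and wt monolayers, and fell by 0.75 ± 0.13 (adjusted p = 1.48e-05). PSMD10, also known as gankyrin, fell by 0.48 ± 0.12, with changes of -0.70 in wt/GFP and -0.26 in wt. For all 3 chaperones the fall in wt/GFP exceeded that in wt, and the difference between the lines could not be tested with 1 array for each line and culture.

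PSME4, the activator PA200, had signals of 1948 and 1356 in wt/GFP and wt spheroids, against 2328 and 2245 in wt/GFP and wt monolayers, and fell by 0.49 ± 0.13 (limma adjusted p = 0.00254), with changes of -0.26 in wt/GFP and -0.72 in wt. PSMF1, the inhibitor PI31, had signals of 1976 and 1777 in wt/GFP and wt spheroids, against 2399.6 and 2368 in wt/GFP and wt monolayers, and fell by 0.35 ± 0.12 (adjusted p = 0.0193). With shared probe sets left out PSMF1 changed by 0.22, not called. Both genes lost their call when the wt spheroid array or either monolayer array was left out. Of the genes matched by name only, PSMC3IP had signals of 487 and 563 in wt/GFP and wt spheroids, against 1395 and 1197 in wt/GFP and wt monolayers, and fell by 1.28 ± 0.15 log2 units (SE), or 2.43-fold (adjusted p = 7.4e-08). PSME3IP1 had signals of 1267 and 1296 in wt/GFP and wt spheroids, against 1519 and 1442 in wt/GFP and wt monolayers, with a change of -0.21 ± 0.13, which did not pass (adjusted p = 0.198).

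Each gene was described by its brightest probe set, and 78 of the 89 member probe sets passed the filter. Tested alone, 54 of the 78 were called lower and 3 higher, against 14.6% lower and 25.5% higher among 32768 probe sets. Of the 22 genes with several probe sets over the filter, 17 had all of them on 1 side of 0. The 5 others were PSMA5, PSMF1, PSME4, PSMG4 and PSME3IP1. The dimmer probe set of PSMA5 had signals of 484 and 478 in wt/GFP and wt spheroids, against 318 and 304 in wt/GFP and wt monolayers, and rose by 0.61 ± 0.19 (adjusted p = 0.0128), opposite to the main one. The brighter probe sets of PSMF1 disagreed in size, with -0.35 ± 0.13 (adjusted p = 0.0332) and -0.98 ± 0.13 (adjusted p = 9.93e-07), and a dim one gave 0.22 ± 0.24 (adjusted p = 0.501). The next probe set of PSME4 gave 0.06 ± 0.16 (adjusted p = 0.788), that of PSMG4 0.92 ± 0.48 (adjusted p = 0.133) and that of PSME3IP1 0.23 ± 0.15 (adjusted p = 0.245).

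A further probe set of PSMD4, with a mean below the filter, was higher in spheroids, opposite to the other 3. It had signals of 85 and 36.4 in wt/GFP and wt spheroids, against 12.6 and 6.65 in wt/GFP and wt monolayers. The probe set of PSMA8, also below the filter on average, had signals of 22.3 and 35 in wt/GFP and wt spheroids, against 15.6 and 13 in wt/GFP and wt monolayers. Neither was tested.

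**Figure D5:**
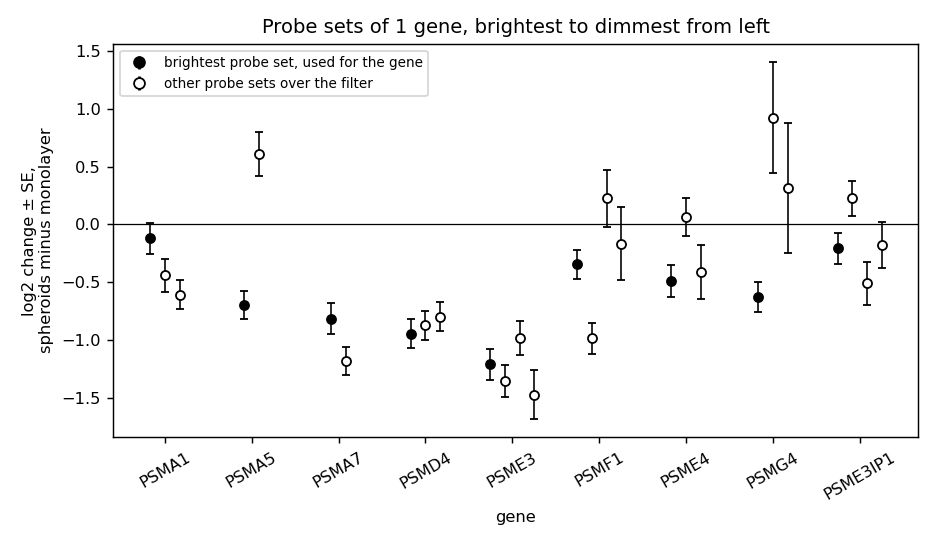
Log2 change ± SE, spheroids minus monolayer, of each probe set over the filter for 9 genes, ordered from the brightest (filled) to the dimmest. All probe sets of PSMA7, PSMD4 and PSME3 lie below -0.7, while PSMA5, PSMF1, PSME4, PSMG4 and PSME3IP1 have probe sets on both sides of 0.

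The lines were compared for the same members. No member was called different between wt/GFP and wt in limma, while 0.0279% of all genes, 4 in number, were. At an unadjusted p under 0.05, 2 of 43 members differed, against 6.52% of all genes. They were PSMG1, with a difference of -0.29 ± 0.13 (wt/GFP minus wt, unadjusted p = 0.0291, adjusted p = 0.726), and PSME4, with 0.29 ± 0.13 (unadjusted p = 0.0368, adjusted p = 0.749). The culture change of the constitutive subunits had a median of -0.86 in wt/GFP and -0.95 in wt, and 27 of 27 were below 0 in both lines. Over all genes the median was 0.21 in wt/GFP and 0.21 in wt, and 4215 of 14349 genes were below 0 in both lines.

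Lists of neighbouring pathway genes were read beside the members. Over all genes, for comparison, 18.5% fell and 30.6% rose, with 17.2% lower and 6.83% higher under all 4 scalings. As said above, keeping a call under all 4 was easier for a fall than for a rise. Of 8 factors that belong to or bind the 26S proteasome under other names, 5 fell, all under each of the 4 scalings, and 0 rose, with a median log2 change of -0.72. SEM1, the small lid subunit, had signals of 3699 and 4189 in wt/GFP and wt spheroids, against 7706 and 10056 in wt/GFP and wt monolayers, and fell by 1.16 ± 0.12 (adjusted p = 2.95e-09) in limma. ADRM1, a ubiquitin receptor of the base, fell by 0.99 ± 0.12 (adjusted p = 7.05e-08), and PAAF1, a 19S chaperone, fell by 0.93 ± 0.17 (adjusted p = 4.36e-05). Of 7 tested genes of proteasome gene regulation, 1 fell and 2 rose, with a median of 0.08, and 1 fall and 1 rise held under all 4 scalings. These counts were near the 18.5% lower and 30.6% higher of all genes. NFE2L1 had signals of 2851 and 2447 in wt/GFP and wt spheroids, against 3619 and 3725 in wt/GFP and wt monolayers, and fell by 0.47 ± 0.12 (adjusted p = 0.00147), with the cultures apart. STAT3 rose by 1.48 ± 0.13 (adjusted p = 1.71e-10) and MAFF, a small partner of NFE2L1, rose by 0.48 ± 0.12 (adjusted p = 0.00105), the last with a value of -0.11 with the hybridisation controls. mRNA levels do not show how much NFE2L1 protein was active.

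Of 8 tested genes that take part in inducing the immunoproteasome, 5 rose and 0 fell, and 2 of the rises held under all 4 scalings, against 30.6% and 6.83% of all genes, with a median of 0.86. IRF9, which carries the interferon signal to DNA with STAT proteins, had signals of 971 and 998 in wt/GFP and wt spheroids, against 223 and 181 in wt/GFP and wt monolayers, and rose by 2.22 ± 0.19 (adjusted p = 1.2e-10). NLRC5, the activator of HLA class I and PSMB9 genes, had signals of 243 and 133 in wt/GFP and wt spheroids, against 42.4 and 59.9 in wt/GFP and wt monolayers, and rose by 1.59 ± 0.39 (adjusted p = 0.00111). IRF2 rose by 1.40 ± 0.29 (adjusted p = 0.000207). Of 8 genes that supply peptides to HLA class I, 4 rose and 1 fell, against 30.6% and 18.5% of all genes, and 0 of the 4 rises held under all 4 scalings. TAPBP, which holds the peptide transporter to HLA molecules, rose by 1.11 ± 0.15 (adjusted p = 5.57e-07), and B2M, the light chain of HLA class I, rose by 0.72 ± 0.13 (adjusted p = 4.84e-05). CALR, a chaperone of the same complex, fell by 0.63 ± 0.12 (adjusted p = 5.73e-05). Of 10 tested genes of ubiquitin and its delivery, 2 rose and 5 fell, with a median of -0.28, and 3 falls and 0 rises held under all 4 scalings. Of all genes, 30.6% rose and 18.5% fell, and 17.2% were lower under all 4 scalings. UFD1 and VCP, which extract ubiquitin-tagged proteins, fell by 0.80 ± 0.12 (adjusted p = 2.87e-06) and by 0.69 ± 0.12 (adjusted p = 1.37e-05), and RAD23B, a shuttle to the proteasome, fell by 0.63 ± 0.13 (adjusted p = 0.000175).

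The arrays differed in ways that moved with culture. The median signal was 68.2 and 67 on the wt/GFP and wt spheroid arrays, against 48.6 and 47.9 on the monolayer arrays. The 3' probe set of ACTB exceeded its 5' probe set by a ratio of 1.73 and 1.76 on the wt/GFP and wt spheroid arrays, against 1.3 and 1.32 on the monolayer arrays, and for GAPDH the ratio was 0.951 and 0.868 on the wt/GFP and wt spheroid arrays, against 0.882 and 0.897 on the monolayer arrays. Of the marker lists of other cell types, 1 of 3 leukocyte, 2 of 4 fibroblast and 1 of 3 endothelial genes passed the filter, and none was at 0. The summed signal of the fibroblast list was 3903 and 2368 in wt/GFP and wt spheroids, against 429.8 and 402 in the monolayers. COL1A1 alone gave 3779.6 and 2275 in these spheroids, against 338 and 303 in the monolayers. That of the leukocyte list was 39.6 and 110.3 in wt/GFP and wt spheroids, against 52.4 and 90.9 in the monolayers, and that of the endothelial list 269.8 and 211 in wt/GFP and wt spheroids, against 117 and 134 in the monolayers. The part of these differences in the changes of the members was not tested. In a bulk array a fall can come from fewer cells that make an mRNA or from less mRNA in each, and these cannot be told apart.

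The test rested on limma's moderation, which sets the error of a gene mainly from other genes of like brightness, since the 4 arrays left 1 residual degree of freedom. Without the trend of error with brightness, 23 members were called lower and 1 higher in place of 37 and 2, and PSME1 lost its call (limma adjusted p = 0.0506).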

How the data were processed

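Total RNA of HCT116 wt/GFP and HCT116 wt cells, grown as spheroids and as monolayers, was measured on 4 Affymetrix arrays. The deposited value table holds linear intensities. They are signals of the MAS5 algorithm per the submitters' processing notes; its version is not given in the sources used here. The trimmed mean, leaving out 2% at each end, was 500.1 on each array, and a change in total RNA per cell cannot be seen after such scaling.

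Names came from the platform annotation, with symbols updated through a RefSeq gene table; 41091 had 1 symbol, and 10 antisense or divergent-transcript probe sets of member loci were left out. The deposited intensities were transformed here to log2(signal + 14.0), the pseudocount being the 25th percentile of all values, which understates the change of dim genes. Probe sets with a mean above the 40th percentile, 5.48 on that scale or a signal of 30.6, were kept, and each gene took its brightest. All 4 arrays entered a fit with limma 3.58.1 (R 4.3.3), which had culture and cell line as terms and an empirical Bayes trend, with 1 residual and 25.9 prior degrees of freedom. P-values were two-sided and adjusted by Benjamini-Hochberg across 14349 genes, with calls under 0.05, and ± is the moderated SE over 2 lines. The fit was also run on simulated data with known changes. Their noise was drawn from the SEs of the same fit, so this run cannot test how the fit sets the error.

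The pairing comes from the cell line in the labels. Across genes, the difference between lines in spheroids and that in monolayers had a Pearson r of 0.00684. The number of cultures per array is not stated, and no line and culture had a replicate array, so p-values measure the disagreement of the 2 lines, moderated across genes, which may be technical. Lists were described by counts and medians with no set test.

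The members, the 5 pathway lists and the promoter motifs were chosen with earlier results of these data known. Full values were given for the inducible members and their counterparts, for the 2 members with the largest change in each role, for members with probe sets of opposite sign, and for up to 3 genes of each pathway list. Signals of PSMA1, PSMB1, PSMG2, POMP, PSMF1 and the members matched by name were added after their values were seen. Alternatives were 3 other scalings, 2 other pseudocounts, 2 other filters, 3 ways to treat probe sets, the line left out of the fit, 2 other moderations, and each array left out in turn.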

Additional observations from a re-analysis of the deposited data

Results flagged for a closer look

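Among the 78 member probe sets over the filter, 5 had culture changes of opposite sign in the lines. All were dimmer probe sets, and none was the probe set that stood for its gene. The difference between the lines was not tested, since each line and culture had 1 array. The log2 change, spheroids minus monolayer, of the PSMA3 probe set was -0.819 in wt/GFP and 0.56 in wt. For the PSMB2 probe set it was -1.28 in wt/GFP and 0.229 in wt. The PSMB4 probe set changed by 0.204 in wt/GFP and -0.44 in wt. The PSME4 probe set gave 0.135 in wt/GFP and -0.00615 in wt, and the PSMF1 probe set gave -0.521 in wt/GFP and 0.19 in wt.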

How the results depend on the processing

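Of 719 values of single members under 17 alternatives, 666 kept their direction and their side of the threshold, 39 lost a call, 10 gained one and 4 changed sign. The sign changed for PSMG4, 0.20 when probe sets were averaged and 0.92 with shared probe sets left out, for PSMF1, 0.22 with those left out, and for PSMA1, -0.27 to 0.0313 with an array left out; none of these was called. The constitutive median was -0.74 after quantile normalization, -1.22 after median centring, -1.42 with hybridisation controls, and -0.92 to -0.79 with an array left out. The median of the 3 inducible members was 0.82, 0.30 and 0.10 under these scalings, 0.52 with no filter, when PSMB8 joined them, and 0.61 to 0.77 with an array left out.

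Genes called higher numbered 2350 after median centring, 982 with hybridisation controls, 2646 with no trend, and 8342 when each probe set was tested alone, against 4393. Genes called lower numbered 4641 after median centring, 1714 with shared probe sets left out, 1174 with no trend, and 4795 with each probe set alone, against 2657. The share of calls that were higher was 62.3% as deposited, 53.0% after quantile normalization, 33.6% after median centring and 20.8% with hybridisation controls. Members called higher numbered 0 with hybridisation controls and 1 with no trend. Members called lower numbered 24 with shared probe sets left out, when 31 members were tested, and 23 with no trend. Calls of either direction numbered 24 with no trend, against 39. Median centring and hybridisation scaling lower every log2 change by a constant, which by construction moves calls from higher to lower. Hybridisation scaling also moves the lines by unlike amounts, which enters the error of each gene. The SE of PSME1 was 0.30 under it, against 0.11 as deposited. Apart from these points and the set of tested probe sets, the cause of these shifts was not tested.

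With no replicate block, that is without pairing by line, 37 members were lower and 2 higher. With an array left out, 31 to 35 members were lower and 2 higher. Without the wt/GFP spheroid array POMP, PSMA2, PSMA4, PSMB2, PSMB4 and PSMD10 lost their call. Without the wt spheroid array POMP, PSMA4, PSMB4, PSME4 and PSMF1 did. Without the wt/GFP monolayer array PSMD10, PSME4 and PSMF1 did, and without the wt monolayer array PSMB4, PSME4 and PSMF1. These fits had no line term, and the lone array was assumed to vary like the other culture. No member differed between the lines under any alternative run for that comparison. Signals below the filter, as for PSMB8, limit what can be said of dim members, and 4 arrays limit all values.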

Other observations

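Other members held several motif matches in their promoter windows. PSMD3, a lid subunit, held 2 antioxidant response element cores, at -37 and 33 from the annotated start, and 2 STAT elements, at -94 and -5. PSMB3 held that core at -104 with CCAAT boxes at -55 and -13, and PSMC4 held it at 27. Either that core or a CCAAT box was present in 15 of the 22 constitutive subunits with a window. Over all windows the core was found in 13.6% and the CCAAT box in 35.7%, and the share with either was not counted. The brightness of every constitutive subunit tested was at or above the 82nd percentile of all genes tested. Falls of over 2-fold were called for 16 members, of which 12 were constitutive subunits, and the largest outside those were in PSMB10, PSMG1, PSMC3IP and PSME3. The smallest of these falls was that of PSMC6, and 5.15% of all genes tested had a log2 change at or below it.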
